A study of Homo sapiens with 12 samples.

Results

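The MHC class II chains were followed on 12 Affymetrix expression arrays of total RNA from 2 human lymphoma lines. All probe sets that the platform annotation of 2016 maps to HLA-DRA, HLA-DRB1, HLA-DPA1, HLA-DPB1, HLA-DQA1, HLA-DQB1, HLA-DMA, HLA-DMB, HLA-DOA or HLA-DOB were taken, whatever their values. This gave 33 of the 54613 probe sets that are not array controls, for all 10 genes. Of these, 27 carry 1 gene symbol and 6 carry several HLA symbols: 5 list HLA-DRB1 with other DRB genes, 3 of these 5 list HLA-DQB1 too, and 1 lists HLA-DQA1 with HLA-DQA2. The lines were OCI-Ly7 and Pfeiffer, both diffuse large B-cell lymphoma lines of the germinal centre type, kept in IMDM with fetal bovine serum. Cells were transiently transfected with an siRNA against BCL6, the transcriptional repressor that holds B cells in the germinal centre programme, or with a non-target control, and RNA was taken at 48 h. The 4 groups of 3 arrays were OCI-Ly7 NTsiRNA, OCI-Ly7 BCL6siRNA, Pfeiffer NTshRNA and Pfeiffer BCL6siRNA. For Pfeiffer the control is an shRNA by title and an siRNA by description, which leaves its kind open to doubt. The labels do not state whether the 3 arrays within a group had separate cultures behind them, so p-values measure the spread between these arrays, which may be technical. Each line comes from 1 tumour, and a difference between the lines is a difference between 2 lines.

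MHC class II molecules present peptides from the endocytic pathway to CD4+ T cells, and B cells carry them without stimulation. At the surface an alpha and a beta chain pair as HLA-DR, HLA-DP or HLA-DQ. HLA-DM, the pair of HLA-DMA and HLA-DMB, exchanges the invariant chain fragment in their groove for peptides, and HLA-DO, the pair of HLA-DOA and HLA-DOB, restrains HLA-DM in B cells. The genes lie together on chromosome 6, and their promoters share a module of X and Y boxes on which RFX and NF-Y assemble and recruit the coactivator CIITA.

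Stretches of the promoters are shown for the 8 windows that hold the Y box letters, so that the letters counted here can be seen in place; that of HLA-DMB shows its TGATGATG, since its ATTGG lies on the other strand. RefSeq windows (GRCh38.p14) were found for 9 of the 10 genes, in 10 windows, since HLA-DPA1 has 2, and HLA-DRA was not matched. The 250 bases before the annotated start were searched. Neither HLA-DPA1 window holds ATTGG or TGATGATG. Each stretch of 90 bases reads 5′ to 3′ on the strand of its gene, and capitals mark, on that strand, the Y box core (ATTGG), the letters TGATGATG and the relaxed X box CCTNGNNAC.
HLA-DRB1, chr6:32589880-32589969 (- strand): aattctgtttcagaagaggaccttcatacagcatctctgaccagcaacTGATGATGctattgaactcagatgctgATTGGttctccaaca
HLA-DPB1, chr6:33075816-33075905 (+ strand): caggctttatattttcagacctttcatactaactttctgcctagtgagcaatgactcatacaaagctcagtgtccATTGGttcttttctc
HLA-DQA1, chr6:32637263-32637352 (+ strand): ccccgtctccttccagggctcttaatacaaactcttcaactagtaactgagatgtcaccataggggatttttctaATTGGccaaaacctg
HLA-DQB1, chr6:32666731-32666820 (- strand): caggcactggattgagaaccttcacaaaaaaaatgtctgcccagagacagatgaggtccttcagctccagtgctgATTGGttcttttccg
HLA-DMA, chr6:32953132-32953221 (- strand): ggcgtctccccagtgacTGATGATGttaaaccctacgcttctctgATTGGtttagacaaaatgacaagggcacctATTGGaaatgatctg
HLA-DMB, chr6:32941061-32941150 (- strand): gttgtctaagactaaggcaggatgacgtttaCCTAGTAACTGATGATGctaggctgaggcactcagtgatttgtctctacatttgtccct
HLA-DOA, chr6:33009644-33009733 (- strand): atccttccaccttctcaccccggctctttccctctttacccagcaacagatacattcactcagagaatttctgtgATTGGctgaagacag
HLA-DOB, chr6:32817086-32817175 (- strand): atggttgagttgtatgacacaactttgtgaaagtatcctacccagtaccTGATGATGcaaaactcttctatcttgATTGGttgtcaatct

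ATTGG, the inverted CCAAT letters of the Y box, stood on one strand or the other in 8 of the 10 windows, against 32.0% of all 35116 promoter windows in the table. CTGATTGG, a longer form that contains ATTGG, stood in 3 windows, those of HLA-DRB1, HLA-DQB1 and HLA-DMA, against 3.81% of all. The letters TGATGATG were picked after these windows had been read. They stood in 4 windows, of HLA-DRB1, HLA-DMA, HLA-DMB and HLA-DOB, against 0.795% of all. In HLA-DRB1 they began 73 bases before the start, with ATTGG beginning at 46, and in HLA-DMA they began at 107, with ATTGG at 79. HLA-DMB held CCTAGTAAC directly before them, at 91 bases before the start, 1 of 2 windows with the relaxed X box CCTNGNNAC, which 12.8% of all windows held. The X box CCTAGCAAC (0.538% of all windows), the X2 box letters TGCGTCA (2.09%) and TGACGTCA (1.65%) and the BCL6 core TTCCTAGAA (0.313%) stood in 0 of the 10. The relaxed form TTCNNNGAA stood in 1, that of HLA-DQA1, against 6.57% of all. A match here is a description of letters and not of a bound site.

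**Figure D1:**
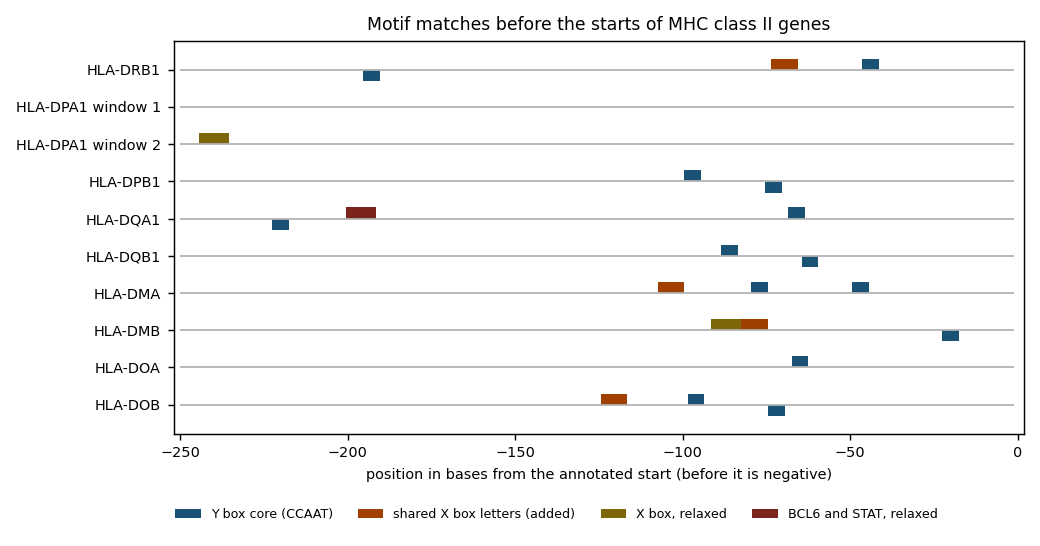
Positions of the motif letters in the 10 RefSeq promoter windows of the class II genes, with distance from the annotated start in bases on the x axis and 1 line per window. Marks above a line are on the strand of the gene and marks below it on the other strand; ATTGG is in 8 windows and TGATGATG in 4.

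The deposited values are log2 MAS5 signals, and a level below means log2(signal + 16). A change is the siRNA mean minus the control mean on that scale, given with limma's standard error (SE), and it understates changes of dim probe sets. Probe sets were tested where the mean of at least 1 line put them in the upper 0.5 of the table, a level of 6.83 or a signal of 98. This kept 27307 probe sets and 31 of the 33 class II ones. P-values were adjusted (Benjamini-Hochberg) over all 27307, and a probe set is said to rise or fall, or to be higher or lower, where the adjusted p was under 0.05. A probe set bright in one line and dim in the other passed through the bright line. Probe sets of one gene read the same transcripts, so they are not independent of each other, and those ending in _x_at (12) or _s_at (6) can read related genes or several transcripts. Levels of different probe sets are readings of brightness on the array and are not compared as amounts of transcript.

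Correlations between arrays were 0.963 to 0.968 within groups and 0.866 to 0.876 across the lines. Each array's trimmed mean signal was 500.0. On Pfeiffer BCL6siRNA replicate 3 the 3′ minus 5′ log2 difference of the ACTB control probe sets was 0.39, where the 5 further arrays of that line gave 0.28 to 0.31, and that of GAPDH was -0.03, where they gave -0.13 to -0.09. Without that array 12 class II probe sets fell in Pfeiffer, and with it 15. Leaving out Pfeiffer control 1 in its place gave 10. BCL6 was the target of the siRNA, and it read 13.50, 13.57 and 13.59 on OCI-Ly7 controls and 13.13, 13.10 and 13.15 after siRNA, and 13.86, 13.92 and 14.01 and then 13.11, 13.04 and 12.75 in Pfeiffer, without overlap. It fell to 74.6% of control in OCI-Ly7 (change -0.42 ± 0.08 SE, adjusted p = 0.0128) and to 51.3% in Pfeiffer (change -0.96 ± 0.08 SE, adjusted p = 1.05e-06). The call in OCI-Ly7 was lost without OCI-Ly7 control 2, control 3 or siRNA replicate 1 (adjusted p up to 0.0594) and by limma without a trend (adjusted p = 0.12). All 5 measured B cell markers (MS4A1, CD79A, CD79B, PAX5 and CD22) passed the filter level in each group. Their mean level was 12.97 to 13.0 on OCI-Ly7 control arrays and 13.21 to 13.27 after siRNA, and 11.95 to 12.04 on Pfeiffer control arrays and 11.39 to 11.49 after siRNA. The 3 plasma cell markers (SDC1, PRDM1 and XBP1) had mean levels of 8.52 to 9.16 and 9.27 to 9.36 in OCI-Ly7 and 10.15 to 10.55 and 10.78 to 11.1 in Pfeiffer, in the same order. In each group 2 of these 3 passed the filter level, and SDC1 did not (group means 5.9 to 6.53). Of the 5 germinal centre markers (BCL6, MME, MYBL1, LMO2 and S1PR2) 4 passed the filter level in OCI-Ly7 and 5 in Pfeiffer, and their mean level was 10.77 to 11.12 and then 10.52 to 10.91 in OCI-Ly7, and 10.02 to 10.09 and then 9.59 to 9.71 in Pfeiffer. The mean B cell readings were thus higher after siRNA in OCI-Ly7 and lower in Pfeiffer. The mean plasma cell readings were higher after siRNA in both lines. The mean of the germinal centre list was lower without overlap in Pfeiffer and overlapped in OCI-Ly7, but that list holds BCL6, the siRNA target. In Pfeiffer the group means of MYBL1 (9.18 to 8.26) and LMO2 (8.85 to 8.27) were lower after siRNA too. Those of MME (8.31 to 8.8) and S1PR2 (9.97 to 10.03) were higher. The part of these markers in the class II results was not tested. The mean level of the 4 T cell markers was 5.21 to 6.3 over all arrays, with CD3E alone passing the filter level, in OCI-Ly7, and that of the 4 monocyte markers 4.96 to 5.74, with CSF1R alone passing it, in OCI-Ly7 controls (6.87) and Pfeiffer siRNA arrays (6.85). Of 2 dendritic cell markers CD1C passed it in OCI-Ly7 (9.19 and 8.67). Fewer cells of one kind and less RNA per cell cannot be told apart in such bulk samples.

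Before knock-down the surface chains and HLA-DM read higher in Pfeiffer, and the HLA-DO chains did not. Of the 25 tested probe sets of HLA-DR, HLA-DP, HLA-DQ and HLA-DM, 20 reached the filter level in both lines, and all 20 were higher on Pfeiffer control arrays than on OCI-Ly7 control arrays. Over all 21062 probe sets that reached it in both lines, 31.8% were higher and 37.4% lower; over all tested ones the shares were 31.9% and 39.3%. The median difference was 1.94 over the 20, against -0.08 over the 21062. The remaining 5 (238900_at of HLA-DRB, 213831_at and 236203_at of HLA-DQA1, 209480_at and 212999_x_at of HLA-DQB1) passed the filter through Pfeiffer alone, so that they read higher there by selection. They are given by their levels only, since the size of such a difference depends on the added 16. HLA-DRA, the nearly invariant alpha chain of HLA-DR, differed by 0.97 and 1.17 on its 2 probe sets, and HLA-DMA by 1.52 ± 0.05 (SE; adjusted p = 5.49e-13). HLA-DMB differed by 0.88 ± 0.15 (SE; adjusted p = 5.83e-05). HLA-DPB1, the beta chain of HLA-DP, was 3.12 ± 0.06 (SE) higher on 201137_s_at, and HLA-DQA1 was 5.55 higher on 203290_at and 6.86 higher on 212671_s_at. The 4 tested HLA-DOA probe sets differed by -0.08 to 0.18 and none passed the test (adjusted p = 0.14 to 0.884), though 206313_at did with quantile normalization (0.27, adjusted p = 0.0316). HLA-DOB was lower in Pfeiffer by -3.35 ± 0.09 (SE) on 205671_s_at, where the 3 OCI-Ly7 controls read 11.80 to 11.87 and the 3 Pfeiffer controls 8.35 to 8.64. Its second probe set, 1554984_a_at, passed the filter through OCI-Ly7 alone, and its lower level in Pfeiffer (adjusted p = 0.00956) lost its call without Pfeiffer control 1 (adjusted p = 0.0586).

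**Figure D2:**
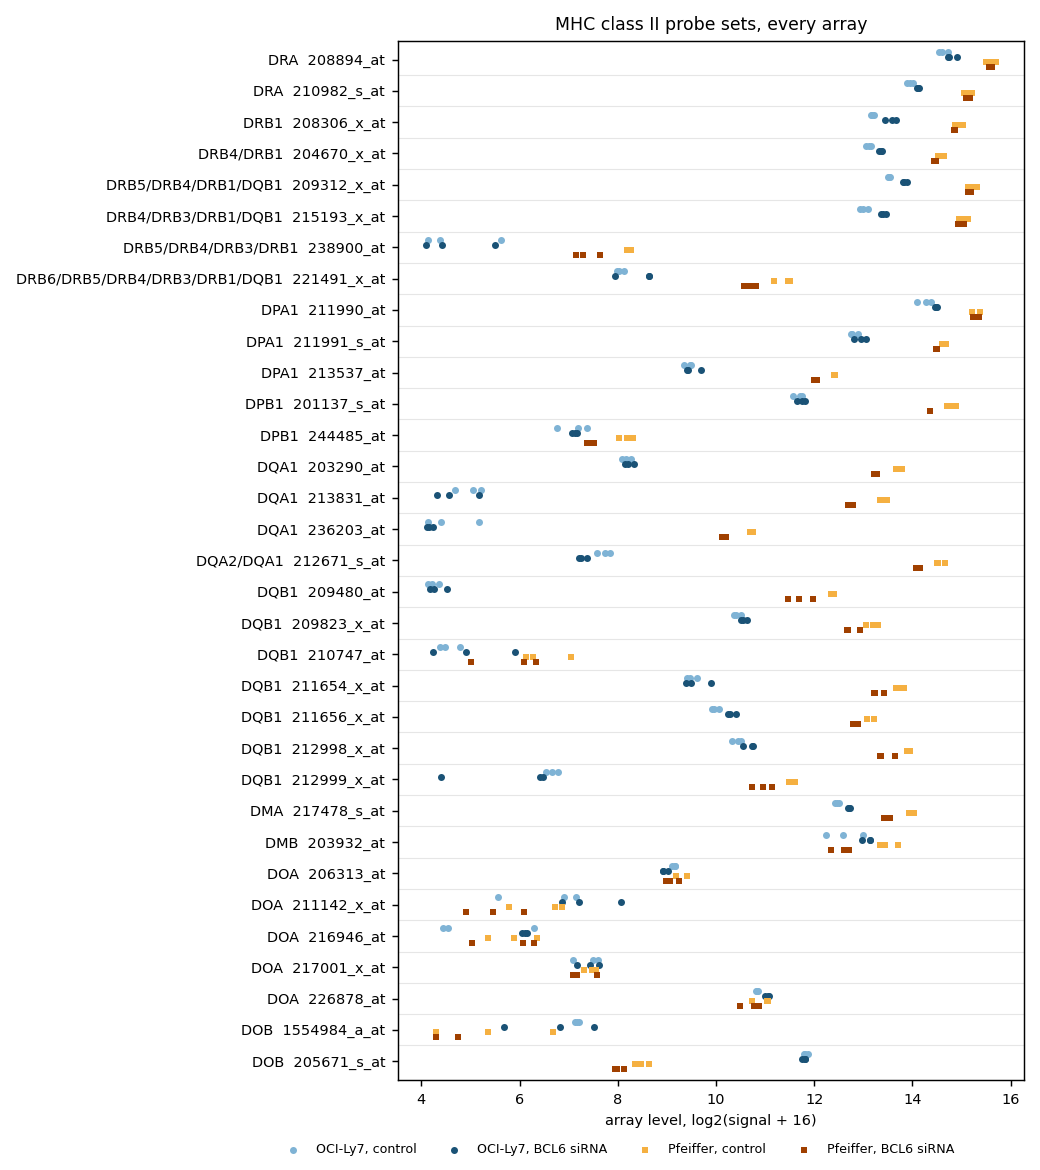
Level, log2(signal + 16), on the x axis, of all 33 class II probe sets, 1 per row, on each of the 12 arrays, with arrays coloured by group. Pfeiffer control points lie above all OCI-Ly7 points for HLA-DR, HLA-DP, HLA-DQ and HLA-DM, overlap or lie close to them for HLA-DOA, and lie below them for HLA-DOB 205671_s_at.

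After BCL6 siRNA the chains moved differently in the lines. In OCI-Ly7 6 of 31 probe sets rose and 1 fell, against 0.623% and 0.48% of all probe sets. In Pfeiffer 15 fell, against 5.02% of all, and 0 rose by limma at either the adjusted threshold or an unadjusted p under 0.05, which 4.91% and 11.3% of all passed upward. The median change was 0.13 in OCI-Ly7 and -0.45 in Pfeiffer, and over all tested probe sets it was -0.01 and 0.01. The change in Pfeiffer was lower than that in OCI-Ly7 for 13 of 31 by the test of the difference itself (background 2.64%) and higher for 0, also at an unadjusted p under 0.05 (background 2.42% and 9.08%). In OCI-Ly7 the siRNA arrays lay wholly above the controls for 11 of the 31 (background 9.51%) and wholly below for 3 (10.3%). In Pfeiffer they lay wholly below for 21 and wholly above for 0, where 13.4% of all probe sets did either. With each gene read by its brightest probe set with 1 symbol and the fit made on these, 2 of the 10 genes rose in OCI-Ly7, where 1.69% of 9888 genes rose and 0.991% fell, and 6 fell in Pfeiffer, where 8.31% fell and 7.9% rose. By limma without a trend between spread and level, none of the 7 OCI-Ly7 calls held (adjusted p = 0.066 to 0.19), and 6 of the 13 differences did.

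**Figure D3:**
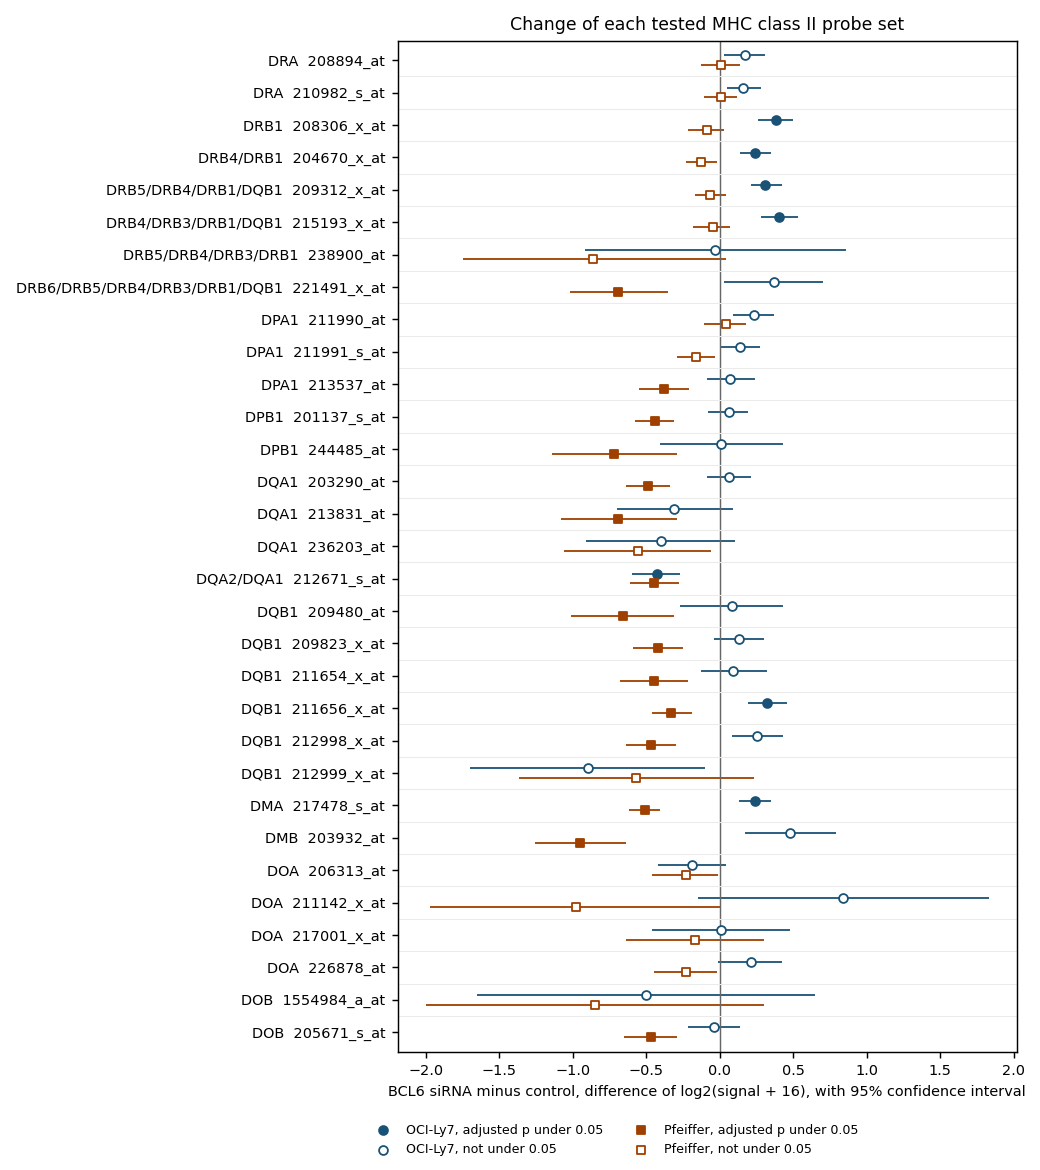
Change after BCL6 siRNA (log2 scale, siRNA minus control) of each tested class II probe set in OCI-Ly7 and in Pfeiffer, with 95% confidence intervals; filled symbols have an adjusted p under 0.05. In Pfeiffer 28 of 31 points lie below 0 and in OCI-Ly7 23 of 31 lie above it.

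HLA-DRA pairs with every DR beta chain, and neither of its probe sets passed the test in either line. On 208894_at the OCI-Ly7 controls read 14.54, 14.60 and 14.72 and the siRNA arrays 14.74, 14.90 and 14.73, and the Pfeiffer controls read 15.57, 15.50 and 15.70 and the siRNA arrays 15.61, 15.55 and 15.62. The groups overlapped in Pfeiffer, while in OCI-Ly7 all siRNA arrays lay above all controls. The change was 0.17 ± 0.06 (SE; adjusted p = 0.298) in OCI-Ly7 and 0.01 ± 0.06 (SE; adjusted p = 0.973) in Pfeiffer, whose 95% interval ran from -0.13 to 0.14. With quantile normalization in place of the deposited scaling the Pfeiffer value turned to -0.14 (adjusted p = 0.0148). The second probe set, 210982_s_at, gave 0.16 (adjusted p = 0.21) and 0.01 (adjusted p = 0.973), and -0.12 (adjusted p = 0.0626) in Pfeiffer with quantile normalization.

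The DR beta chains rose in OCI-Ly7 on 4 of their 6 probe sets. HLA-DRB1, which encodes the main DR beta chain, is the sole symbol of 208306_x_at, where OCI-Ly7 controls read 13.18, 13.15 and 13.22 and siRNA arrays 13.58, 13.45 and 13.66. The Pfeiffer controls read 14.94, 14.87 and 15.03 and the siRNA arrays 14.86, 14.87 and 14.84. The siRNA arrays thus lay above the controls in OCI-Ly7 and below them in Pfeiffer, by a small step there. The OCI-Ly7 change was 0.38 ± 0.06 (SE; adjusted p = 0.00506), a level of 130% of control with a 95% interval of 119% to 142%. In Pfeiffer it was -0.09 ± 0.06 (SE; adjusted p = 0.39), and the difference between the lines was -0.47 (adjusted p = 0.00342).

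The shared DR beta probe sets that were bright in both lines gave the same picture. 215193_x_at (HLA-DRB4, HLA-DRB3, HLA-DRB1 and HLA-DQB1) read 12.94, 12.99 and 13.09 in OCI-Ly7 controls and 13.40, 13.46 and 13.35 after siRNA, a rise of 0.40 ± 0.06 (SE; adjusted p = 0.00331). In Pfeiffer it read 15.01, 14.95 and 15.13 and then 15.04, 14.93 and 14.97, with overlapping groups (change -0.05, adjusted p = 0.666). 209312_x_at (HLA-DRB5, HLA-DRB4, HLA-DRB1 and HLA-DQB1) went from 13.53, 13.51 and 13.54 to 13.80, 13.89 and 13.83 in OCI-Ly7 and from 15.22, 15.14 and 15.31 to 15.15, 15.14 and 15.19 in Pfeiffer. Its groups were again apart in OCI-Ly7 alone, with changes of 0.31 ± 0.05 (SE; adjusted p = 0.00732) and -0.07 (adjusted p = 0.497). 204670_x_at (HLA-DRB4 and HLA-DRB1) went from 13.06, 13.16 and 13.12 to 13.38, 13.31 and 13.36 in OCI-Ly7 and from 14.61, 14.52 and 14.64 to 14.49, 14.43 and 14.46 in Pfeiffer. It rose by 0.24 ± 0.05 (SE; adjusted p = 0.028) in OCI-Ly7, and its -0.13 in Pfeiffer did not pass the test (adjusted p = 0.127). The changes of these 3 differed between the lines (-0.45, -0.38 and -0.37; adjusted p = 0.00442, 0.00561 and 0.0057). The rise on 204670_x_at lost its call without any of OCI-Ly7 controls 1, 2 and 3 and siRNA replicates 1 and 3 (adjusted p up to 0.125), while the other 3 held with any array left out (adjusted p up to 0.0332), and that on 204670_x_at was also lost with no filter (adjusted p = 0.0629) and with OCI-Ly7 fitted on its own (adjusted p = 0.051).

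The 2 remaining DR beta probe sets were dimmer, and both read lower after siRNA on all Pfeiffer arrays. 221491_x_at, which lists HLA-DRB6, HLA-DRB5, HLA-DRB4, HLA-DRB3, HLA-DRB1 and HLA-DQB1, read 11.47, 11.50 and 11.18 in Pfeiffer controls and 10.69, 10.82 and 10.58 after siRNA, a fall of 0.69 on the log2 scale (SE 0.16; adjusted p = 0.0109). In OCI-Ly7 it read 7.98, 8.12 and 8.02 and then 8.63, 8.64 and 7.94, so that 1 siRNA array lay below the controls (change 0.37, adjusted p = 0.362); without that array, siRNA replicate 3, it rose (0.60, adjusted p = 0.0322). Its change differed between the lines by -1.05 (adjusted p = 0.0112). The fall in Pfeiffer was lost without Pfeiffer control 1 or control 2 (adjusted p up to 0.0513). 238900_at (HLA-DRB5, HLA-DRB4, HLA-DRB3 and HLA-DRB1) read 8.18, 8.26 and 8.20 in Pfeiffer controls and 7.63, 7.30 and 7.15 after siRNA, and the change of -0.86 ± 0.42 (SE) did not pass the test (adjusted p = 0.243), but did with Pfeiffer fitted on its own (adjusted p = 0.017) or a pseudocount of 64 (adjusted p = 0.033). In OCI-Ly7 it read 4.10 to 5.62 on all 6 arrays, at the dim end of the table, with a change of -0.03 (adjusted p = 0.987).

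HLA-DP showed no called change in OCI-Ly7 and fell in Pfeiffer on 3 of 5 probe sets. HLA-DPB1, its beta chain, read 11.72, 11.56 and 11.76 on 201137_s_at in OCI-Ly7 controls and 11.75, 11.64 and 11.82 after siRNA. In Pfeiffer it read 14.79, 14.71 and 14.89 and then 14.35 on each of the 3 siRNA arrays. The order of its levels was thus Pfeiffer control, Pfeiffer siRNA, and then the 2 OCI-Ly7 groups, which overlapped. The fall was 0.44 on the log2 scale (change -0.44 ± 0.06 SE, adjusted p = 0.000374), to 73.5% of control (95% interval 66.9% to 80.9%), the OCI-Ly7 change was 0.06 (adjusted p = 0.809), and the lines differed by -0.50 (adjusted p = 0.00438). The dimmer 244485_at read 8.02, 8.31 and 8.18 in Pfeiffer controls and 7.37, 7.52 and 7.45 after siRNA (change -0.72 ± 0.20 SE, adjusted p = 0.0322). In OCI-Ly7 it read 7.37, 6.76 and 7.20 and then 7.06, 7.17 and 7.12, with overlap (change 0.01, adjusted p = 0.992). Its fall was lost with no filter (adjusted p = 0.0762) and on leaving out whichever of the 6 arrays of that line (adjusted p up to 0.115).

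Under the deposited scaling the 3 probe sets of HLA-DPA1, the alpha chain of HLA-DP, disagreed in Pfeiffer. With quantile normalization 211991_s_at was a called fall there (-0.23, adjusted p = 0.016), and 211990_at read -0.08 (adjusted p = 0.303). 213537_at read 12.41, 12.41 and 12.42 in Pfeiffer controls and 12.06, 12.04 and 11.99 after siRNA, and it fell to 76.8% of control (change -0.38 ± 0.08 SE, adjusted p = 0.00563). 211991_s_at read 14.66, 14.60 and 14.69 and then 14.49, 14.50 and 14.49, also without overlap, but its change of -0.16 ± 0.06 (SE) did not pass (adjusted p = 0.13). 211990_at read 15.22, 15.21 and 15.37 and then 15.35, 15.23 and 15.33, with overlap and a change of 0.04 ± 0.07 (SE; adjusted p = 0.812). In OCI-Ly7 213537_at gave 9.50, 9.47 and 9.34 and then 9.70, 9.41 and 9.43, 211991_s_at gave 12.75, 12.76 and 12.90 and then 13.06, 12.95 and 12.82, and 211990_at gave 14.10, 14.27 and 14.37 and then 14.46, 14.50 and 14.47. Only on 211990_at were these groups apart, and none of the 3 changes passed (0.07, 0.14 and 0.23; adjusted p = 0.798, 0.372 and 0.134). The lines differed on 213537_at (-0.45, adjusted p = 0.0265), which was lost without OCI-Ly7 control 3, OCI-Ly7 siRNA replicate 1, any Pfeiffer control or Pfeiffer siRNA replicate 2 (adjusted p up to 0.0639).

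HLA-DQ held the most falling probe sets: 8 of 10 tested ones fell in Pfeiffer. HLA-DQA1, the alpha chain, read 13.78, 13.66 and 13.72 on 203290_at in Pfeiffer controls and 13.21, 13.28 and 13.21 after siRNA. In OCI-Ly7 the same probe set read 8.27, 8.17 and 8.08 and then 8.34, 8.15 and 8.21. The Pfeiffer groups were apart and the OCI-Ly7 groups overlapped at a far lower level. The change was -0.49 ± 0.07 (SE; adjusted p = 0.000375) in Pfeiffer, to 71.3% of control, and 0.06 (adjusted p = 0.831) in OCI-Ly7, and the lines differed by -0.55 (adjusted p = 0.00462). 213831_at went from 13.40, 13.33 and 13.49 to 12.69, 12.78 and 12.69 in Pfeiffer (change -0.69 ± 0.18 SE, adjusted p = 0.0282), a call lost with a pseudocount of 1 (adjusted p = 0.335), by limma without a trend (adjusted p = 0.0734) and on leaving out whichever of the 6 arrays of that line (adjusted p up to 0.106). 236203_at went from 10.70, 10.70 and 10.75 to 10.14, 10.20 and 10.12, as clean a step on the arrays, but with the spread of all 12 arrays its change of -0.56 ± 0.24 (SE) did not pass (adjusted p = 0.165). It passed with Pfeiffer fitted on its own (adjusted p = 0.00105) and with a pseudocount of 64 (adjusted p = 0.0106). In OCI-Ly7 these 2 read 4.31 to 5.22 and 4.12 to 5.18, at mean control signals of 15.7 and 7.8, and their changes there (-0.31 and -0.40) did not pass (adjusted p = 0.572 and 0.553).

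The probe set shared by HLA-DQA1 and HLA-DQA2, 212671_s_at, was the only class II probe set that fell in OCI-Ly7. It read 7.57, 7.84 and 7.73 in OCI-Ly7 controls and 7.26, 7.37 and 7.21 after siRNA, and 14.53, 14.51 and 14.67 and then 14.08, 14.13 and 14.16 in Pfeiffer. The groups were apart in both lines. The changes were -0.43 ± 0.08 (SE; adjusted p = 0.0132) and -0.45 ± 0.08 (SE; adjusted p = 0.00157), and their difference was -0.02 with a 95% interval of -0.25 to 0.22 (adjusted p = 0.957). The call in OCI-Ly7, at a mean control signal of 193.6, was lost without OCI-Ly7 control 2, siRNA replicate 1 or siRNA replicate 3 (adjusted p up to 0.0597) and with that line fitted on its own (adjusted p = 0.342).

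HLA-DQB1, the beta chain of HLA-DQ, has 7 probe sets of its own, and 5 of the 6 tested ones fell in Pfeiffer. On 212998_x_at the Pfeiffer controls read 13.96, 13.91 and 13.88 and the siRNA arrays 13.36, 13.64 and 13.34 (change -0.47 ± 0.08 SE, adjusted p = 0.00159). The OCI-Ly7 controls read 10.50, 10.44 and 10.33 and the siRNA arrays 10.73, 10.54 and 10.75 (change 0.25, adjusted p = 0.19). The groups did not overlap in either line and moved in opposite directions, with a difference of -0.72 (adjusted p = 0.00172). On 211656_x_at both movements passed the test: the OCI-Ly7 controls read 10.06, 9.92 and 9.96 and the siRNA arrays 10.28, 10.24 and 10.40, and Pfeiffer went from 13.21, 13.07 and 13.22 to 12.83, 12.90 and 12.80. It rose by 0.32 ± 0.06 (SE; adjusted p = 0.0239) in OCI-Ly7, changed by -0.33 ± 0.06 (SE; adjusted p = 0.00442) in Pfeiffer, and differed by -0.65 (adjusted p = 0.000714). The rise was lost without OCI-Ly7 control 2 or 3 or siRNA replicate 1 or 3 (adjusted p up to 0.104) and with that line fitted on its own (adjusted p = 0.0768).

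Of the other 5 HLA-DQB1 probe sets 3 fell in Pfeiffer, and none of the 4 tested ones passed in OCI-Ly7. 209823_x_at read 13.30, 13.06 and 13.19 and then 12.68, 12.94 and 12.66 in Pfeiffer (change -0.42 ± 0.08 SE, adjusted p = 0.00365), and 10.36, 10.51 and 10.41 and then 10.50, 10.63 and 10.55 in OCI-Ly7 (change 0.13, adjusted p = 0.592). Its change differed between the lines by -0.55 (adjusted p = 0.011). 211654_x_at read 13.83, 13.67 and 13.74 and then 13.24, 13.42 and 13.22 in Pfeiffer (change -0.45 ± 0.11 SE, adjusted p = 0.014), and 9.61, 9.41 and 9.48 and then 9.39, 9.90 and 9.50 in OCI-Ly7 (change 0.09, adjusted p = 0.818). That fall was lost without Pfeiffer control 1 or siRNA replicate 1 (adjusted p up to 0.0643) and by limma without a trend (adjusted p = 0.0671). 209480_at read 12.34, 12.35 and 12.41 and then 11.69, 11.97 and 11.46 in Pfeiffer (change -0.66 ± 0.16 SE, adjusted p = 0.0177), a fall lost without any Pfeiffer control or siRNA replicate 1 or 3 (adjusted p up to 0.0902) and with a pseudocount of 1 (adjusted p = 0.302). On 212999_x_at Pfeiffer went from 11.48, 11.49 and 11.61 to 10.96, 11.15 and 10.74, also without overlap, and OCI-Ly7 from 6.79, 6.67 and 6.53 to 6.41, 4.40 and 6.48. Neither change passed (-0.57 and -0.90; adjusted p = 0.41 and 0.353). The Pfeiffer change passed without OCI-Ly7 siRNA replicate 2, the array that read 4.40 (adjusted p = 0.00847), and with Pfeiffer fitted on its own (adjusted p = 0.00477). The dim 210747_at was not tested by the model; its Pfeiffer arrays read 6.28, 7.05 and 6.14 and then 6.34, 6.10 and 5.02, and its OCI-Ly7 arrays 4.23 to 5.91. Exact two-sided permutation tests of it gave p = 0.6 in OCI-Ly7 and 0.4 in Pfeiffer, where 3 arrays against 3 cannot go below 0.1.

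The HLA-DQB1 probe sets differed in the gap they read between the lines. 209480_at read 4.14 to 4.52 on its 6 OCI-Ly7 arrays, a mean control signal of 2.8, below the filter level, and 12.34 to 12.41 on Pfeiffer controls. The 4 HLA-DQB1 probe sets ending in _x_at other than 212999_x_at read 9.39 to 10.75 in OCI-Ly7 and were 2.76 to 4.24 higher in Pfeiffer. The HLA alleles of the lines are not given, and class II genes are among the most polymorphic known, so less transcript and a poorer match of a probe to the allele cannot be told apart. Reading of DRB transcripts by the _x_at probe sets of HLA-DQB1 was not tested.

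HLA-DM, the peptide exchanger, fell on both its probe sets in Pfeiffer. HLA-DMA on 217478_s_at read 14.04, 13.93 and 13.99 in Pfeiffer controls and 13.45, 13.54 and 13.43 after siRNA, and 12.42, 12.50 and 12.47 and then 12.69, 12.73 and 12.70 in OCI-Ly7. No groups overlapped, and the step was down in Pfeiffer and up in OCI-Ly7. The change in Pfeiffer was -0.51 ± 0.05 (SE; adjusted p = 9.77e-06), to 70.0% of control with a 95% interval of 65.0% to 75.4%. In OCI-Ly7 it was 0.24 ± 0.05 (SE; adjusted p = 0.0309), or 118% of control, a call lost with no filter (adjusted p = 0.0657) and without any 1 of the 6 OCI-Ly7 arrays (adjusted p up to 0.115). The difference between the lines was -0.76 ± 0.07 (SE; adjusted p = 1.75e-05), which held with any array left out (adjusted p up to 0.000115). HLA-DMB on 203932_at read 13.34, 13.45 and 13.71 in Pfeiffer controls and 12.70, 12.60 and 12.35 after siRNA, and 13.00, 12.58 and 12.25 and then 13.14, 13.14 and 12.98 in OCI-Ly7. Its OCI-Ly7 controls had the largest spread among class II groups with a mean level above 12 (SD 0.38, n = 3) and overlapped the siRNA arrays. HLA-DMB fell to 51.9% of control in Pfeiffer (95% interval 41.8% to 64.4%; change -0.95 ± 0.15 SE, adjusted p = 0.000628), the largest fall among the class II probe sets that passed the test. Its OCI-Ly7 change of 0.48 ± 0.15 (SE) did not pass (adjusted p = 0.159), but did without OCI-Ly7 control 1 (0.67, adjusted p = 0.0239), and the lines differed by -1.42 ± 0.21 (SE; adjusted p = 0.000898).

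HLA-DO, the inhibitor of HLA-DM, changed on 1 of 6 tested probe sets. HLA-DOB, its beta chain, read 8.64, 8.47 and 8.35 on 205671_s_at in Pfeiffer controls and 7.94, 8.12 and 7.99 after siRNA, and 11.80, 11.82 and 11.87 and then 11.75, 11.81 and 11.82 in OCI-Ly7. It fell to 72.1% of control in Pfeiffer (change -0.47 ± 0.09 SE, adjusted p = 0.0023), and the OCI-Ly7 change was -0.04 with a 95% interval of -0.22 to 0.14 (adjusted p = 0.922). The difference between the lines, -0.43, had an adjusted p of 0.0515 and passed at gene level (adjusted p = 0.0376), and the Pfeiffer fall was lost when that line was fitted on its own (adjusted p = 0.088). The dim 1554984_a_at read 7.13, 7.21 and 7.17 and then 6.82, 7.52 and 5.68 in OCI-Ly7, and 4.29, 6.69 and 5.35 and then 4.29, 4.75 and 4.74 in Pfeiffer, with overlap in both lines and changes of -0.50 and -0.85 that did not pass (adjusted p = 0.801 and 0.391).

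HLA-DOA, the alpha chain of HLA-DO, passed the test on none of its 4 tested probe sets in either line. 226878_at read 10.82, 10.85 and 10.84 in OCI-Ly7 controls and 11.06, 11.08 and 11.00 after siRNA, and 11.04, 10.73 and 11.06 and then 10.48, 10.78 and 10.88 in Pfeiffer. The OCI-Ly7 groups were apart and the Pfeiffer groups overlapped. The changes were 0.21 (95% interval -0.01 to 0.42, adjusted p = 0.452) and -0.23 (95% interval -0.45 to -0.02, adjusted p = 0.177). 206313_at read 9.10, 9.17 and 9.17 and then 9.02, 8.93 and 8.92 in OCI-Ly7, a step down without overlap, and 9.40, 9.19 and 9.40 and then 8.98, 9.25 and 9.06 in Pfeiffer. Its changes were -0.19 and -0.23 (adjusted p = 0.534 and 0.205), so in OCI-Ly7 the 2 brighter probe sets of this gene moved in opposite directions. The 3 dim ones overlapped in both lines. 217001_x_at read 7.08 to 7.62 over all 12 arrays (changes 0.01 and -0.17), and 211142_x_at read 4.91 to 8.07 (changes 0.84 and -0.98, adjusted p = 0.531 and 0.229). 216946_at, which the model did not test, read 4.44 to 6.36, with differences of 1.01 in OCI-Ly7 and -0.08 in Pfeiffer (exact two-sided permutation p = 0.4 and 0.9).

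In Pfeiffer the falls tended to be smaller on brighter class II probe sets. The 352 tested probe sets with a Pfeiffer control level of 14.5 or more had a median change of 0.12, and 0.852% of them fell, while the medians of the dimmer classes lay between -0.01 and 0.05. Of the 10 class II probe sets in that bright class 2 fell, HLA-DPB1 201137_s_at and 212671_s_at, and the changes ran from -0.45 to 0.04. Of the 10 with a control level from 12 to 14 all 10 fell, by changes of -0.95 to -0.33, where 13.5% of the 1913 probe sets of that class fell. Over the 31 class II probe sets the correlation of change with control level was r = 0.58 (Spearman 0.68) in Pfeiffer and r = 0.47 (0.55) in OCI-Ly7, a description over probe sets that share genes and arrays. Quantile normalization, which gives every array the same distribution, gave 21 falling class II probe sets in Pfeiffer, 6 of the 8 HLA-DR ones among them, where the deposited scaling gave 15 and 1. The bright DR beta probe sets then read -0.17 (208306_x_at), -0.18 (204670_x_at), -0.22 (209312_x_at) and -0.18 (215193_x_at), with adjusted p = 0.0318, 0.00811, 0.00179 and 0.0166. HLA-DPB1 201137_s_at read -0.56 (adjusted p = 1.07e-05), and HLA-DPA1 211990_at read -0.08 (adjusted p = 0.303). In OCI-Ly7 6 rose and 1 fell under either scaling. Whether brightness has a part in the smaller changes of HLA-DR was not tested.

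**Figure D4:**
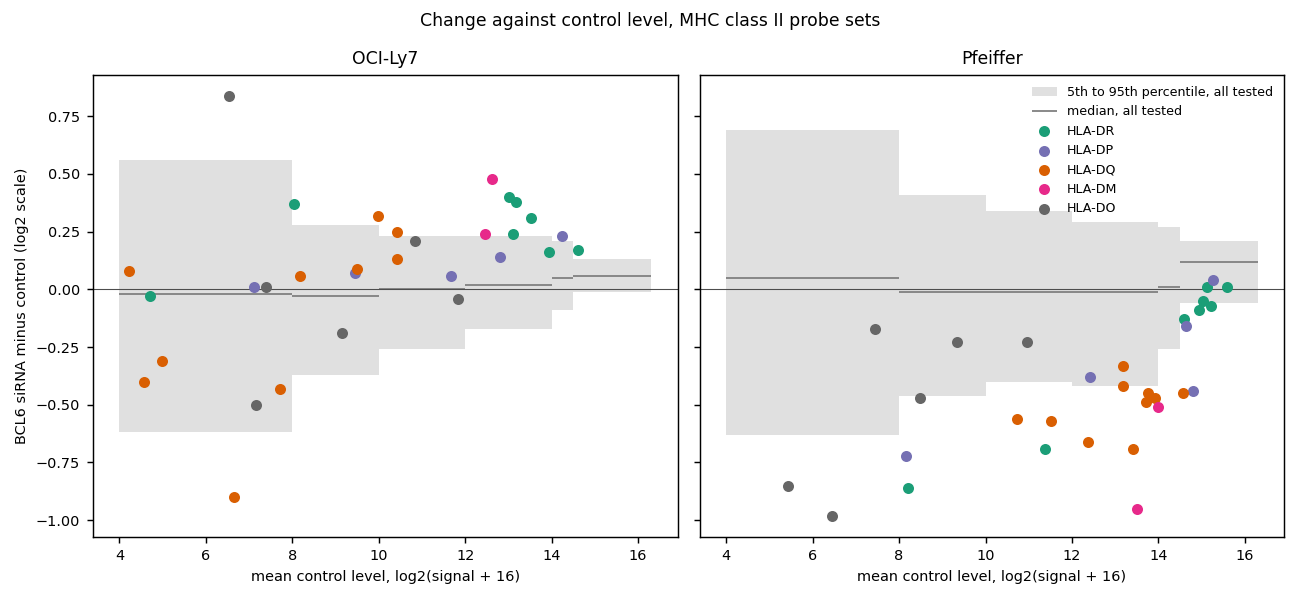
Change after BCL6 siRNA (log2 scale) against control level, log2(signal + 16), in each line, with all tested probe sets in grey and the 31 class II probe sets coloured by family of their first symbol. In Pfeiffer the class II points with control levels of 12 to 14 all lie below 0 and those above 15 lie near 0.

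Other genes of the pathway were read from a list of 21 (CIITA, RFX, NF-Y and CREB1 subunits, CD74, cathepsins and other lysosomal enzymes, MARCH ligases and CD83), of which 19 were tested, each by its brightest probe set. In OCI-Ly7 1 rose and 0 fell, in Pfeiffer 0 rose and 5 fell, and the median changes were 0.06 and -0.19. Over the 11721 genes tested and read in the same way, 0.938% rose and 0.614% fell in OCI-Ly7. In Pfeiffer 5.85% of them rose and 6.22% fell. Between the control arrays 11 of the 19 were higher and 4 lower in Pfeiffer, against 31.9% and 39.3% of all tested probe sets. Those shares are not of genes read by their brightest probe set. The fit at gene level, with its own filter, gave 4201 of 9888 genes higher and 3666 lower. The 11 include CTSB (OCI-Ly7 group means 4.63 and 5.38) and the 4 include MARCHF1 (Pfeiffer group means 5.75 and 5.54). Both passed the filter through the other line alone, so they differ by selection. The 4 lower listed genes also included RFXAP (-1.36, adjusted p = 5.88e-10) and NFYA (-0.77, adjusted p = 6.12e-06). CIITA, the coactivator of class II transcription, read 7.48, 8.0 and 8.16 and then 7.85, 8.19 and 7.77 in OCI-Ly7, and 10.13, 10.20 and 10.11 and then 9.74, 10.14 and 9.98 in Pfeiffer. It was 2.27 ± 0.17 (SE; adjusted p = 7.72e-09) higher in Pfeiffer controls, in the direction of the surface chains. Its change passed the test in neither line: 0.06 (adjusted p = 0.943) in OCI-Ly7 and -0.19 in Pfeiffer, with a 95% interval of -0.55 to 0.17 (adjusted p = 0.569). CD74, the invariant chain that escorts class II molecules, read 14.11, 14.22 and 14.24 and then 14.38, 14.47 and 14.42 in OCI-Ly7 and overlapped at 15.18 to 15.40 in Pfeiffer. Its changes were 0.23 (adjusted p = 0.127) and -0.01 (adjusted p = 0.97), and in Pfeiffer -0.14 (adjusted p = 0.0454) with quantile normalization.

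Of the 5 tested cathepsins 2 fell in Pfeiffer, CTSS and CTSH, and so did 1 other lysosomal enzyme, LGMN. The other 3, named after their values were seen, did not pass there: CTSB changed by -0.19 (adjusted p = 0.738), CTSD by -0.32 (adjusted p = 0.55) and CTSZ by -0.24 (adjusted p = 0.426). CTSS, the cathepsin that trims the invariant chain in B cells, went from 12.42, 12.37 and 12.35 to 11.67, 11.77 and 11.59 there (change -0.71 ± 0.06 SE, adjusted p = 3.64e-06). CTSH, another cathepsin, changed by -0.54 ± 0.05 (SE; adjusted p = 1.14e-05), and LGMN, the asparagine endopeptidase of lysosomes, by -0.82 ± 0.14 (SE; adjusted p = 0.0013). None of these 3 passed in OCI-Ly7 (0.09, 0.21 and 0.29; adjusted p = 0.636, 0.0727 and 0.435), though CTSH did at gene level (adjusted p = 0.0424), and all differed between the lines (-0.80, -0.75 and -1.11). CD83, a surface protein that shields class II molecules from MARCHF1, was the listed gene that rose in OCI-Ly7. It went from 10.69, 10.69 and 10.70 to 11.17, 11.12 and 11.14 in OCI-Ly7 (change 0.45 ± 0.06 SE, adjusted p = 0.00103) and from 13.70, 13.81 and 13.82 to 12.63, 12.80 and 12.69 in Pfeiffer (change -1.07 ± 0.06 SE, adjusted p = 2.16e-08). Its direction in each line was that of HLA-DMA and HLA-DQB1 211656_x_at, whose calls in OCI-Ly7 were lost on leaving out single arrays. HLA-DPB1 201137_s_at and HLA-DQA1 203290_at fell in Pfeiffer without a called change in OCI-Ly7. The fifth listed gene to fall in Pfeiffer was MARCHF8, a ubiquitin ligase of membrane proteins, named after its value was seen (change -0.44 ± 0.10 SE, adjusted p = 0.013).

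The mean of the 31 probe sets, each centred on its line, was 0.15 to 0.26 on the Pfeiffer controls and -0.25 to -0.13 after siRNA, and in OCI-Ly7 it ran from -0.10 to -0.00 on controls and from -0.01 to 0.12 after siRNA. The 5 probe sets with 1 symbol most like this profile over the 12 arrays were those of LINC01215 (Pearson r = 0.964), AIM2 (0.963), CD52 (0.961), NAPSB (0.960) and SYK (0.960). CD52, a surface glycoprotein of lymphocytes, read 14.08, 14.14 and 14.14 and then 14.34, 14.35 and 14.35 in OCI-Ly7, and 13.94, 13.95 and 14.01 and then 12.54, 12.65 and 12.50 in Pfeiffer. SYK, the kinase downstream of the B cell receptor, read 12.25, 12.18 and 12.20 in Pfeiffer controls and 11.44, 11.49 and 11.53 after siRNA. The likeness rests on 12 arrays that also chose these genes, and it carries no test.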

How the data were processed

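Expression was measured on 12 Affymetrix arrays, 3 per group. The authors deposited 1 table of log2 MAS5 signals for 54675 probe sets; MAS5 and affy are named in the submitters' processing notes, with no version. Back-transformed, each array's mean after trimming 2% at each end was 500.0, so the deposited signals had been scaled per array. The 62 control probe sets were left out. The platform annotation gave 41091 probe sets 1 symbol, 1801 several and 11721 none.

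Signals were turned into log2(signal + 16). The upper 0.5 of probe sets by the higher line mean (27307) was fitted with limma (lmFit, eBayes with trend) on all 12 arrays with 4 group means; residual degrees of freedom were 8 and the median of the prior ones 6.9. Contrasts were siRNA minus control per line, their difference (Pfeiffer minus OCI-Ly7) and Pfeiffer minus OCI-Ly7 controls. P-values are two-sided, adjusted by Benjamini-Hochberg over all 27307 at 0.05. Simulated data with 200 changed probe sets among 27307 were used to check the fit for OCI-Ly7. There 36.3% of the changes of 0.6 and 6.8% of those of 0.3 were recovered. Of the calls made, 4.86% were false.

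All class II probe sets are named, with BCL6, up to 4 called genes of lowest p per line and direction of the pathway list, CIITA and CD74 in every case, and the 5 probe sets most like the mean profile. IFI30 was not analysed here. The members and lists were chosen with earlier results of these data known. Same-numbered control and siRNA arrays did not deviate together (r = -0.022 to 0.03 over the 6 pairs), so the numbers were not used as pairs. Promoters came from RefSeq. Alternatives were pseudocounts of 1 and 64, other filters, quantile normalization, gene level, subsets of probe sets, other limma models, a replicate block and each array left out. The fits ran in R 4.3.3 with limma 3.58.1, and tables and plots in Python 3.11.15 with pandas 2.3.3, numpy 2.4.6, matplotlib 3.10.9 and scipy 1.17.1.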

Additional observations from a re-analysis of the deposited data

Results flagged for a closer look

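These results stand out because the change after BCL6 siRNA differed between the lines by limma's test of the difference itself, with adjusted p under 0.05 over all probe sets. Each value is the Pfeiffer change minus the OCI-Ly7 change on the log2 scale. Among the DR beta probe sets it was -0.47 for 208306_x_at, -0.37 for 204670_x_at, -0.38 for 209312_x_at, -0.45 for 215193_x_at and -1.05 for 221491_x_at. For HLA-DP it was -0.45 for HLA-DPA1 213537_at and -0.50 for HLA-DPB1 201137_s_at. For HLA-DQ it was -0.55 for HLA-DQA1 203290_at, and -0.55, -0.65 and -0.72 for HLA-DQB1 209823_x_at, 211656_x_at and 212998_x_at. HLA-DMA differed by -0.76 and HLA-DMB by -1.42. Of the genes around the chains, CTSS differed by -0.80, CTSH by -0.75, LGMN by -1.11, CD83 by -1.52 and MARCHF8 by -0.69. BCL6 itself differed by -0.54, so it was lowered further in Pfeiffer, and whether that difference has a part in the others was not tested.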

How the results depend on the processing

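Over settings other than leaving out an array, 266 of 283 values of class II probe sets kept their direction and their side of the threshold for OCI-Ly7, 261 of 283 for Pfeiffer, 227 of 252 for the difference of the changes and 219 of 221 for the difference of the controls. The sign turned for 11 values. With quantile normalization these were HLA-DRA 208894_at (-0.14, now a called fall), 210982_s_at (-0.12) and HLA-DPA1 211990_at (-0.08) in Pfeiffer and the control difference of HLA-DOA 211142_x_at (0.08). With a pseudocount of 1 they were the differences of 213831_at (0.09), 236203_at (0.67) and 212671_s_at (0.02), with one of 64 that of 212999_x_at (-0.09), and with array weights 238900_at (0.03) and 244485_at (-0.0) in OCI-Ly7 and 210982_s_at (-0.01) in Pfeiffer. Of these 208894_at alone passed the test on either side; the cause was not tested. Rises in OCI-Ly7, 6 as reported, numbered 2 at gene level (10 genes), 0 by limma without a trend, 3 with 1-symbol probe sets only and 0 without _x_at and _s_at; the 1 fall became 0 in each of these and per line. Falls in Pfeiffer numbered 6 at gene level and 6 without _x_at and _s_at, against 15. Lower changes in Pfeiffer than in OCI-Ly7 numbered 7 at gene level, 6 without a trend and 3 without _x_at and _s_at, against 13. With quantile normalization they numbered 17. Those added by it were HLA-DRA 208894_at (-0.26, adjusted p = 0.00536) and 210982_s_at (-0.25, adjusted p = 0.0158). HLA-DPA1 211990_at (-0.25, adjusted p = 0.0212) and 211991_s_at (-0.35, adjusted p = 0.0175) were also added. Controls higher in Pfeiffer numbered 8 at gene level and 10 without _x_at and _s_at, against 25. The 2 lower ones became 1 at gene level, in the upper 0.25 of probe sets and without _x_at and _s_at. Of the 25 only 20 reached the filter level in both lines, and of the 2 only 1 did. The remaining 5 and 1 passed it through their bright line alone, so they differ by selection. Among the 10 are 238900_at, 213831_at, 236203_at and 209480_at of that kind. Over all probe sets that reached it in both lines, 31.8% were higher and 37.4% lower. The gene level and subset counts have fewer probe sets to count. For the trend and for quantile normalization the cause was not tested.

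With 1 array left out the counts ran from 3 to 6 (rises in OCI-Ly7; 3 without OCI-Ly7 control 2, control 3 or siRNA replicate 1), 0 to 1 (its fall), 10 to 16 (falls in Pfeiffer; 10 without Pfeiffer control 1), 12 to 14 (difference of changes), 25 to 25 and 1 to 2 (controls higher and lower). The control counts include the probe sets that passed the filter through a single line and so differ by selection. Leaving out 1 array also turned the sign of 17 values, none of them called on either side. In OCI-Ly7 the ranges were -0.44 to 0.42 (238900_at), -0.02 to 0.12 (213537_at), -0.17 to 0.14 (244485_at), -0.02 to 0.15 (209480_at), -0.06 to 0.2 (211654_x_at), -0.14 to 0.14 (217001_x_at) and -0.14 to 0.2 (CIITA). In Pfeiffer they were -0.04 to 0.06 and -0.04 to 0.05 (HLA-DRA 208894_at and 210982_s_at) and -0.06 to 0.06 (CD74). For the difference of the changes they were -0.46 to 0.07 (236203_at), -0.08 to 0.06 (212671_s_at), -0.35 to 0.68 (212999_x_at), -0.12 to 0.02 (206313_at) and -0.93 to 0.27 (1554984_a_at), and for the controls -0.57 to 0.25 (211142_x_at) and -0.1 to 0.15 (217001_x_at). The replicate block, which treats same-numbered arrays of a line as pairs, gave 3 rises in OCI-Ly7, 1 fall there, 13 falls in Pfeiffer and 13 lower changes; the arrays share only a number. Over all probe sets, 301 were called in OCI-Ly7, against 196 with no filter, 84 without a trend, 153 with the block, 558 with array weights and 112 to 396 with 1 array left out. In Pfeiffer the count was 2713, against 1767 without a trend, 1603 at gene level and 1786 and 1772 without Pfeiffer control 1 and control 3, and for the difference of the changes 1384, against 739 without a trend and 870 at gene level. Between the controls it was 19454, against 7867 at gene level and 11237 in the upper 0.25, where fewer were tested. With 3 arrays a group the number of arrays limits the precision, and HLA-DQ in OCI-Ly7 was read near or below the filter level on several probe sets.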
